A study of Mus musculus with 12 samples.

Results

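Phase II conjugation enzymes attach a polar group to drugs, hormones, bile acids, bilirubin and reactive lipid products. The genes described here are the protein-coding genes of the mouse liver count table whose symbol begins with Ugt1, Ugt2 or Ugt3, with Gst and a lower-case letter, or with Sult and a digit. The rule used names alone and gave 60 of the 43346 genes in the table, 20 UDP-glucuronosyltransferases (UGTs), 22 glutathione S-transferases (GSTs) and 18 sulfotransferases (SULTs). Of these, 47 had enough reads to be tested, among 16283 tested genes, namely 20 UGTs, 20 GSTs and 7 SULTs.

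Liver RNA came from 4 groups of 3 libraries each, and the 12 libraries are treated as separate samples. Knockout (KO) mice carried S1pr1loxp/loxp with Lyz2-Cre/0, a transgene that is active in myeloid cells, so that the sphingosine-1-phosphate receptor gene is removed from those cells and not from hepatocytes. Wild-type (WT) mice were littermates with S1pr1loxp/loxp and no Cre, so both genotypes carry the floxed alleles. Mice of each genotype were given FFC (much fat, fructose and cholesterol, a feed used to bring about steatohepatitis), or chow, for 24 weeks from 12 weeks of age. The labels do not say that each library is 1 mouse and give no sex, so p-values measure the spread between these libraries.

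UGTs sit in the endoplasmic reticulum and transfer glucuronic acid from UDP-glucuronic acid. GSTs are mostly cytosolic and join glutathione to electrophiles, and SULTs are cytosolic and move sulfate from the donor PAPS. In liver these enzymes belong mainly to hepatocytes, and their genes are known targets of the receptors CAR, PXR and AhR and of the oxidative stress factor NRF2.

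Libraries held 18873092 to 31154930 counts. Levels are CPM, counts brought to a common library size with trimmed-mean scaling, and RPKM is CPM per kilobase of gene length, used wherever 1 gene is set beside another. The scaling factors were 1.09 to 1.25 in the 6 FFC libraries and 0.76 to 0.96 in the 6 chow libraries, so the scale matters for every diet comparison and its effect is given with the counts. S1pr1 itself had 35.3, 35.7 and 38.9 CPM in KO livers on FFC, against 33.7, 39.3 and 29.1 CPM in WT livers on FFC, and 41.5, 28.2 and 32.9 CPM in KO livers on chow, against 29.8, 27.3 and 44.4 CPM in WT livers on chow. These ranges overlapped on both diets, and S1pr1 is also made by liver cells outside the myeloid lineage. Its log2 difference, KO over WT, was 0.11 ± 0.20 (SE, adjusted p = 1.000) on FFC and 0.02 ± 0.20 (SE, adjusted p = 0.971) on chow, so no direction here rests on S1pr1 RNA. Summed over 8 hepatocyte markers, libraries held 90412 to 106690 CPM in KO livers on FFC and 134780 to 203260 CPM in KO livers on chow. In WT livers the same sum was 68300 to 89746 CPM on FFC and 147290 to 215120 CPM on chow. In bulk tissue fewer hepatocytes and less RNA per hepatocyte cannot be told apart, and the part of these marker levels in the results below was not tested.

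Relative to the bulk of tested genes, FFC livers of both genotypes had less RNA of most phase II genes than chow livers. The log2 change of FFC over chow was negative for 7373 of all 16283 tested genes in KO livers and 7619 in WT livers. Among the 47 tested members it was negative for 40 in KO livers and 41 in WT livers. With total-count scaling, described below, it was negative for 28 and 37 members. These counts include the 9 Ugt1a genes, which share most of their reads. All of them were negative in both genotypes, but positive in KO livers with total-count scaling. In KO livers 23 of the 47 tested members fell and 3 rose at an adjusted p under 0.05 in edgeR's quasi-likelihood test, against 12.8% of all tested genes called lower and 13.7% called higher (26.5% in either direction). In WT livers 31 fell and 1 rose, against 8.03% of all tested genes called lower and 8.76% called higher (16.8% in either direction). The median log2 change over the 47 was -0.58 in KO livers and -0.76 in WT livers, while over all tested genes it was 0.09 in KO livers and 0.04 in WT livers. Of the 47, 19 fell in both genotypes and 1, Gstm3, rose in both. How many of all tested genes fell or rose in both was not counted, so these numbers only describe the members.

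By family, in KO livers 8 of 20 UGTs, 11 of 20 GSTs and 4 of 7 SULTs fell, and 2 GSTs and 1 SULT rose. In WT livers 18 of 20 UGTs, 11 of 20 GSTs and 2 of 7 SULTs fell, and 1 GST rose. Among the 18 WT calls of UGTs are the 9 Ugt1a genes, which share most of their reads. Libraries did not overlap between diets for 21 members lower and 2 higher on FFC in KO livers, where 16.1% and 23.4% of all tested genes did so. In WT livers this held for 38 members lower and 2 higher, against 20.1% and 25.0% of all tested genes.

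**Figure D1:**
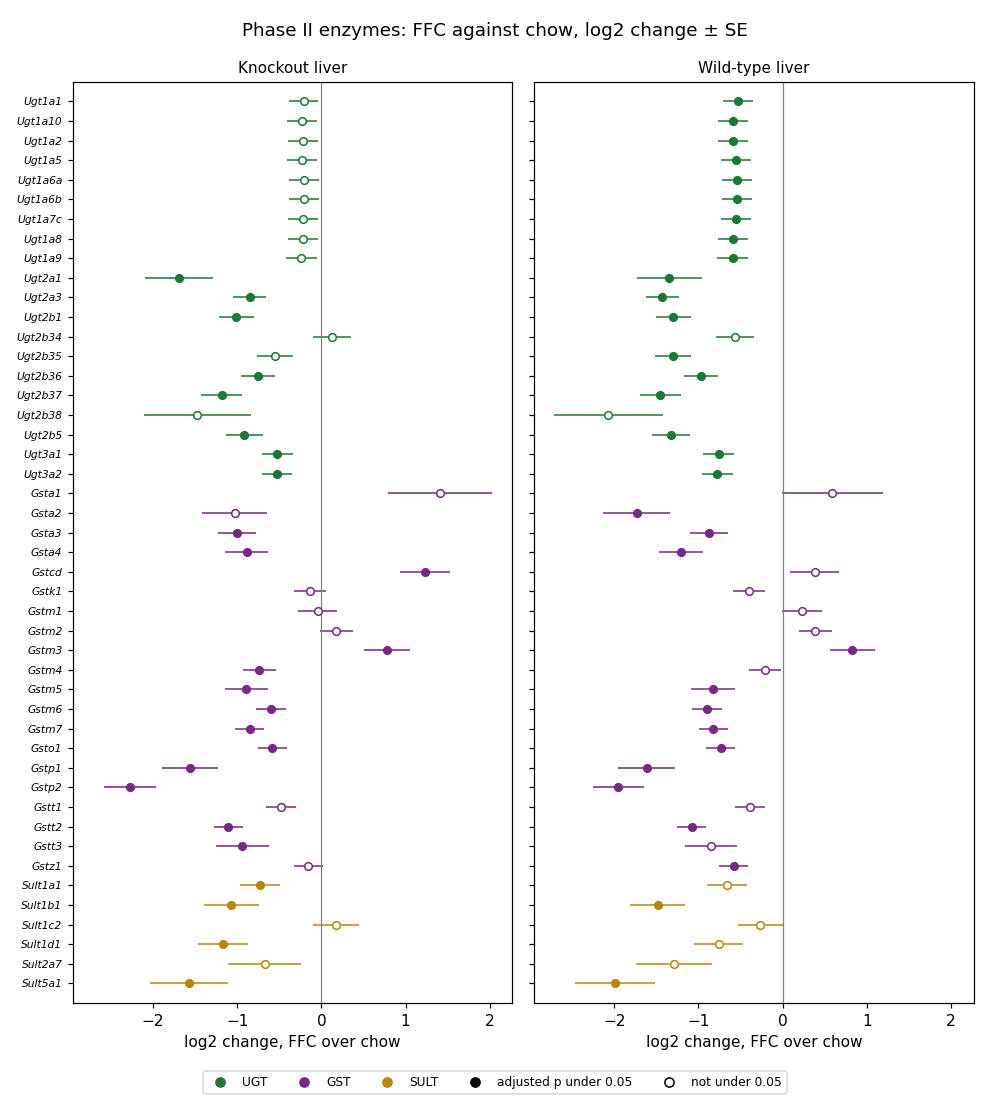
Log2 change of FFC over chow (x axis) for 46 tested members (y axis, by family) in KO livers (left) and WT livers (right), with bars of 1 SE and filled points for an adjusted p under 0.05. Most points lie left of 0, Gstp2 reaches -2.27 in KO livers and -1.95 in WT livers, and Sult1e1, at 0 counts in all KO chow libraries, is not drawn.

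Scaling by total counts, an alternative chosen after the data were seen, moved the median log2 change of all tested genes to 0.57 in KO livers and 0.47 in WT livers. On that scale 6 members fell and 6 rose in KO livers, against 4.58% of all tested genes called lower and 36.0% called higher. In WT livers 13 fell and 3 rose, against 2.63% called lower and 24.3% called higher. A change of scale moves all log2 changes by nearly the same amount. The gap between the members' median and that of all genes was therefore nearly fixed in advance. It was -0.69 in KO livers and -0.79 in WT livers, against -0.67 and -0.80 with trimmed-mean scaling. None of the called members changed sign, but 9 of the 26 KO calls and 14 of the 32 WT calls were kept. The median of the UGTs in KO livers was -0.38 with trimmed-mean scaling and 0.09 with total counts. That median includes the 9 Ugt1a genes. Their shared reads can be set apart in a row of their own, which lies outside the median. The median was then -0.68 in KO livers and -0.84 in WT livers, against -0.38 and -0.68 as deposited. The row of shared reads itself had -0.22 in KO livers and -0.59 in WT livers. The falls below are falls relative to the bulk of tested genes.

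In sums per family, Ugt1a reads taken as shared by all genes of that locus were counted once. Reads shared by only some of them still count for each. On that basis the UGTs had 3853, 4899 and 4774 CPM in KO livers on FFC, against 5915, 6403 and 7899.8 CPM in KO livers on chow. In WT livers the UGT sum was 3398, 4163 and 3386 CPM on FFC, against 6488, 8031 and 5960.1 CPM on chow. Diet groups did not overlap in either genotype. The GST sum averaged 6069.7 ± 362 CPM in KO livers on FFC and 9517 ± 1025 CPM in KO livers on chow (SD, n = 3 each), and 5786 ± 25.9 CPM in WT livers on FFC and 8419 ± 144 CPM in WT livers on chow. SULTs taken in by the symbol rule were lowest in sum, with 374, 461 and 377 CPM in KO livers on FFC, against 446, 804 and 1019 CPM in KO livers on chow, where the groups overlapped through KO chow replicate 1. In WT livers the SULT sum was 398, 348 and 514 CPM on FFC, against 740.2, 801 and 581 CPM on chow, without overlap. As a share of all counts, without trimmed-mean scaling, UGTs held 0.502% ± 0.0452 in KO livers on FFC and 0.542% ± 0.0822 on chow, and 0.446% ± 0.0541 in WT livers on FFC and 0.619% ± 0.0595 on chow (SD, n = 3 each).

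**Figure D2:**
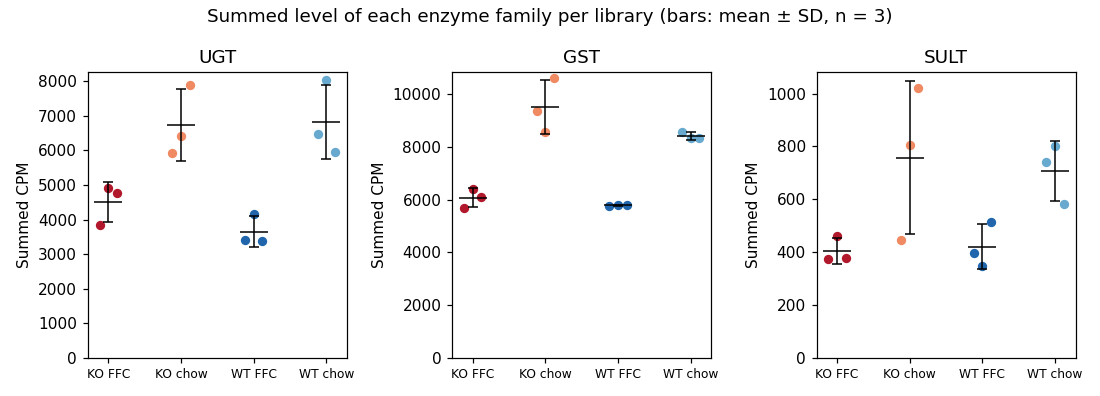
Summed CPM of each family (y axis, from 0) in each library of the 4 groups (x axis), with the mean and SD of 3 libraries. FFC libraries lie below chow libraries in every panel except for SULTs in KO livers, where KO chow replicate 1, at 446 CPM, lies below the highest FFC library, at 461 CPM.

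Among UGT2 genes, whose enzymes glucuronidate steroids, bile acids and many drugs, Ugt2b5 had the highest level per length. It averaged 399 ± 88.7 RPKM in KO livers on FFC and 754 ± 99.02 RPKM in KO livers on chow, and 301 ± 65.5 RPKM in WT livers on FFC and 755 ± 174 RPKM in WT livers on chow (SD, n = 3 each). Library by library, Ugt2b5 had 552, 836 and 839 CPM in KO livers on FFC, against 1385, 1225 and 1592 CPM in KO livers on chow. WT values for Ugt2b5 were 506, 699 and 475 CPM on FFC, against 1207, 1777 and 1227 CPM on chow. Every FFC library lay below every chow library in both genotypes. The log2 change was -0.92 ± 0.22 (SE, adjusted p = 0.00595) in KO livers and -1.33 ± 0.22 (SE, adjusted p = 0.000768) in WT livers. Its coding sequence is 97.0% identical to that of Ugt2b38 and 94.7% to that of Ugt2b37, so reads may be divided among the 3 genes.

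Ugt2b36 had 625, 886 and 789 CPM in KO livers on FFC, against 1123, 1198 and 1556 CPM in KO livers on chow. Its WT values were 529, 662 and 537 CPM on FFC, against 1016, 1386 and 973 CPM on chow. No diet groups overlapped, and the log2 change was -0.75 ± 0.20 (SE, adjusted p = 0.0106) in KO livers and -0.97 ± 0.20 (SE, adjusted p = 0.00364) in WT livers. Ugt2b1, an abundant hepatic form, had 312, 394 and 529 CPM in KO livers on FFC, against 776, 778 and 935 CPM in KO livers on chow. For WT livers Ugt2b1 was at 254, 383 and 327 CPM on FFC, against 753, 904 and 717 CPM on chow. These groups were also apart, with a log2 change of -1.01 ± 0.21 (SE, adjusted p = 0.00232) in KO livers and -1.30 ± 0.21 (SE, adjusted p = 0.000608) in WT livers. Leaving out KO FFC replicate 1 ended the KO call of Ugt2b36 (adjusted p = 0.0656), and no single library ended the Ugt2b1 or Ugt2b5 calls.

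Ugt2b35 had 95.5, 93.2 and 98.04 CPM in KO livers on FFC, against 122, 139.7 and 158 CPM in KO livers on chow. In WT livers it had 59.1, 77.96 and 45.7 CPM on FFC, against 150.5, 189 and 112 CPM on chow. Groups did not overlap in either genotype, yet the log2 change passed the test only in WT livers, at -1.31 ± 0.21 (SE, adjusted p = 0.000645), with -0.55 ± 0.21 (SE, adjusted p = 0.0607) in KO livers. That difference between genotypes, tested directly, was 0.76 ± 0.30 (SE, adjusted p = 0.230). Ugt2b37, a form of low level, had 6.87, 7.30 and 12.4 CPM in KO livers on FFC, against 14.2, 20.4 and 26.001 CPM in KO livers on chow. Its WT levels were 10.5, 11.4 and 10.2 CPM on FFC, against 29.7, 29.7 and 28.6 CPM on chow. The groups were apart, with log2 changes of -1.19 ± 0.24 (SE, adjusted p = 0.00229) in KO livers and -1.45 ± 0.24 (SE, adjusted p = 0.000789) in WT livers, and both calls were kept in every fit that left out 1 library.

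Ugt2b34 and Ugt2b38 did not pass in either genotype. Ugt2b34 had 458, 564 and 482 CPM in KO livers on FFC, against 325, 495 and 559 CPM in KO livers on chow, and 461, 489 and 366 CPM in WT livers on FFC, against 602, 848 and 491 CPM in WT livers on chow, with overlap in KO livers alone. Its log2 changes were 0.13 ± 0.22 (SE, adjusted p = 0.712) in KO livers and -0.56 ± 0.23 (SE, adjusted p = 0.0997) in WT livers. Ugt2b38 varied widely, with 6.37, 4.02 and 12.4 CPM in KO livers on FFC, against 38.4, 13.2 and 11.7 CPM in KO livers on chow, and 9.41, 5.61 and 2.96 CPM in WT livers on FFC, against 17.4, 42.2 and 15.9 CPM in WT livers on chow. Ranges overlapped in KO livers and not in WT livers, and the log2 changes were -1.47 ± 0.64 (SE, adjusted p = 0.112) in KO livers and -2.07 ± 0.65 (SE, adjusted p = 0.0527) in WT livers.

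Ugt2a3, whose human counterpart glucuronidates bile acids, had 242, 228 and 276 CPM in KO livers on FFC, against 330.4, 458 and 559.9 CPM in KO livers on chow. WT livers had 173, 189 and 177 CPM on FFC, against 452, 568 and 433 CPM on chow. All FFC libraries lay below all chow libraries, and Ugt2a3 had the lowest adjusted p of any member in WT livers, with a log2 change of -1.43 ± 0.19 (SE, adjusted p = 0.000154), beside -0.85 ± 0.19 (SE, adjusted p = 0.00417) in KO livers. Ugt2a1, best known from olfactory epithelium, was at 0.709 to 1.48 CPM in KO livers on FFC and 1.91 to 4.43 CPM on chow, with a log2 change of -1.69 ± 0.40 (SE, adjusted p = 0.00549). In WT livers Ugt2a1 ranged over 1.46 to 1.71 CPM on FFC and 3.41 to 4.64 CPM on chow, with -1.34 ± 0.39 (SE, adjusted p = 0.0243), a call lost without 5 of the 6 libraries (adjusted p = 0.0518 to 0.103). The identifier that the table names Ugt2a1 is Ugt2a2 in GENCODE M21, where it shares 1771 exon bases with the Ugt2a1 of that annotation.

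Ugt3a1 and Ugt3a2, whose human counterparts use sugar donors other than UDP-glucuronic acid, are neighbours on chromosome 15 with 93.2% identical coding sequences. Ugt3a2, the higher per length, had 336, 413 and 419 CPM in KO livers on FFC, against 429, 633 and 620.0 CPM in KO livers on chow. WT values for Ugt3a2 were 274, 333 and 303 CPM on FFC, against 496, 565 and 496 CPM on chow. Neither genotype showed overlap between diets, and the log2 change was -0.53 ± 0.18 (SE, adjusted p = 0.0394) in KO livers and -0.77 ± 0.18 (SE, adjusted p = 0.00780) in WT livers. Ugt3a1 had 62.1, 58.3 and 80.4 CPM in KO livers on FFC, against 77.04, 95.5 and 116 CPM in KO livers on chow, where the ranges overlapped, and 54.4, 57.4 and 54.1 CPM in WT livers on FFC, against 98.6, 78.5 and 104 CPM in WT livers on chow, where they did not. Its log2 changes were -0.52 ± 0.18 (SE, adjusted p = 0.0441) in KO livers and -0.76 ± 0.19 (SE, adjusted p = 0.00974) in WT livers. The KO call was lost for Ugt3a2 without 5 of the 6 libraries (adjusted p = 0.0649 to 0.171) and for Ugt3a1 without 4 of the 6 libraries (adjusted p = 0.0619 to 0.172). In WT livers the Ugt3a2 call was lost without WT FFC replicate 2 (adjusted p = 0.0536).

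The 9 Ugt1a genes lie in 1 locus on chromosome 1, where each has its own first exon and all share the later exons. In GENCODE M21 the shared part is 1311 exon bases, and the deposited counts give the reads of that part to each of the 9 genes. The lowest count among the 9 in a library, taken as the shared reads, was 70.1% to 77.1% of the Ugt1a1 count and 88.7% to 100% of each other gene's count. A transcript on the opposite strand, Gm20528, shares 922 exon bases with Ugt1a1 and had a mean count of 9989, and whether counting used strand is not stated. The 9 log2 changes in WT livers, from -0.60 to -0.53, are therefore close to 1 measurement.

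Taken once, the shared Ugt1a reads had 678, 872 and 693 CPM in KO livers on FFC, against 760.5, 808 and 1055 CPM in KO livers on chow. WT values were 589.8, 692 and 618 CPM on FFC, against 958, 1046 and 851 CPM on chow. KO ranges overlapped and WT ranges did not, and the log2 change was -0.22 ± 0.18 (SE, adjusted p = 0.372) in KO livers and -0.59 ± 0.18 (SE, adjusted p = 0.0330) in WT livers. Reads of Ugt1a1, the bilirubin UGT, beyond the shared ones had 269, 297 and 296 CPM in KO livers on FFC, against 289.7, 306 and 380.1 CPM in KO livers on chow. In WT livers they had 224, 269.6 and 227 CPM on FFC, against 363, 311 and 261 CPM on chow. Ranges overlapped in both genotypes, and the log2 change of these reads was -0.18 ± 0.17 (SE, adjusted p = 0.474) in KO livers and -0.38 ± 0.17 (SE, adjusted p = 0.152) in WT livers.

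Ugt1a6a and Ugt1a6b, which act on phenols, had 65.7 to 81.4 and 64.1 to 73.5 CPM beyond the shared reads in KO livers on FFC, and 61.7 to 88.2 and 56.7 to 87.5 CPM in KO livers on chow. In WT livers they had 67.4 to 87.95 and 65.2 to 83.3 CPM on FFC, and 74.5 to 89.04 and 74.5 to 84.4 CPM on chow. The coding sequences of Ugt1a6a and Ugt1a6b are 98.4% identical. Ugt1a7c shares 2170 exon bases with Ugt1a6a and 1444 with Ugt1a6b, where 1311 are common to all Ugt1a genes. Some of these reads may therefore be counted for more than 1 gene. Ugt1a9, another phenol and drug enzyme, had 5.94 to 16.2 CPM of such reads in KO livers on FFC and 11.8 to 33.4 CPM on chow, and 10.5 to 14.7 CPM in WT livers on FFC and 10.2 to 41.5 CPM on chow. Ugt1a5 had 15.5 to 28.3 CPM in KO livers on FFC and 21.1 to 40.9 CPM on chow, and 32.3 to 35.8 CPM in WT livers on FFC and 20.6 to 41.1 CPM on chow. These ranges overlapped between diets. Ugt1a8, Ugt1a2 and Ugt1a10 had at most 38 reads beyond the shared ones in any library, and those of Ugt1a10 passed in KO livers at -2.82 ± 0.99 (SE, adjusted p = 0.0429). With the shared reads moved to a row of their own, which is not among the members, 45 members could be tested. Of these, 27 were called in KO livers, Ugt1a10 among them, and 23 in WT livers, against 26.5% and 16.7% of all tested genes. The row of shared reads, not in these counts, passed in WT livers (-0.59, edgeR adjusted p = 0.0330). Every call of a Ugt1a gene in WT livers as deposited was lost when 1 library was left out, in 5 or 6 of the 6 fits.

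**Figure D3:**
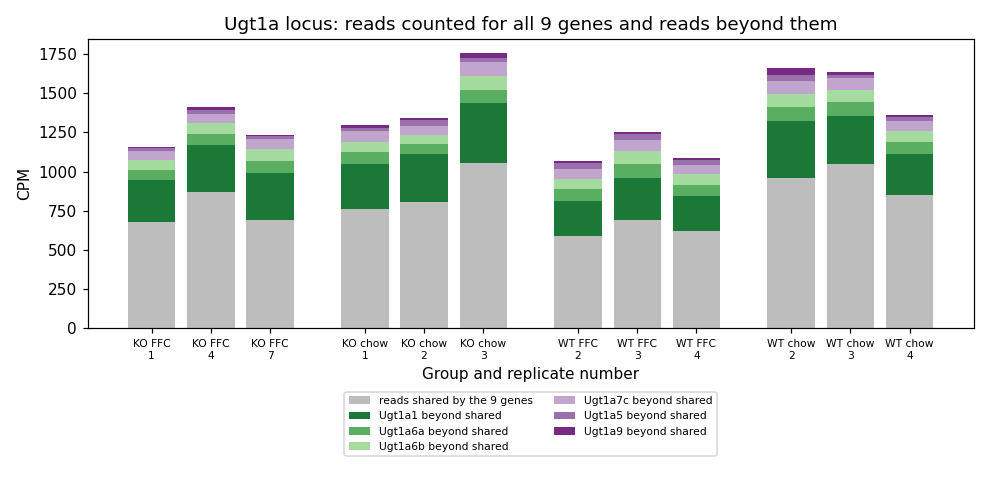
CPM (y axis, from 0) at the Ugt1a locus in each library (x axis, group and replicate number), split into reads counted for all 9 genes (grey) and reads of 6 genes beyond them. The shared part is the largest in every library, at 678 to 872 CPM in KO livers on FFC and 760.5 to 1055 CPM in KO livers on chow.

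The region before the start of some of these genes holds a match to the HNF1 core, the letters GTTAAT followed by any base and ATT, which is the binding motif of a hepatocyte factor and was searched on both strands. It was found in 8 of the 63 RefSeq promoter windows of the members (12.7%), found for 52 of the 60 and reaching from 250 bases before to 50 bases after a start, and in 0.4% of the 32851 windows of all genes. The matches lay in Ugt1a1, Ugt1a9, Ugt1a10, Sult1d1, Sult2a3, Sult2a4, Sult2a5 and Sult2a6, and in none of the 20 windows found for 16 of the 19 members that fell in both genotypes. Several of the 8 are close relatives, so the 12.7% does not count separate matches. Coding sequences are 95.3% identical for Ugt1a9 and Ugt1a10 and 94.4% for Sult2a3 and Sult2a4. Sult2a3 to Sult2a6 had at most 2 counts each over all libraries. The sequences around the match in Ugt1a1, Ugt1a9, Ugt1a10 and Sult1d1 are shown, as these are the tested members that hold it. They are from RefSeq on GRCm38.p6, 5′ to 3′ on the gene's strand, with the match in capitals, at chr1:88211889-88211948, plus strand (Ugt1a1), chr1:88070659-88070718, plus strand (Ugt1a9), chr1:88055311-88055370, plus strand (Ugt1a10) and chr5:87569051-87569110, minus strand (Sult1d1).
Ugt1a1: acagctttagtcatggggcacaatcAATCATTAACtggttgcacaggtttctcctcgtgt
Ugt1a9: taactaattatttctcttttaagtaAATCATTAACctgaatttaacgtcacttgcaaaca
Ugt1a10: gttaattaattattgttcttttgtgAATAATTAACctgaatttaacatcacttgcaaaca
Sult1d1: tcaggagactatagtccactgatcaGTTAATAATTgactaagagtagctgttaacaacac
In the 3 Ugt1a windows the match reads on the opposite strand and begins 45 bases before the start of Ugt1a1, 95 before that of Ugt1a9 and 75 before that of Ugt1a10. A match in these letters is a description and not a bound site.

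Of the GSTs that were called, Gstp2 of the pi class had the most negative log2 change in both genotypes, and its neighbour Gstp1 fell with it. Gstp1, which conjugates electrophilic drugs and is known to be more abundant in male than in female mouse liver, had 424, 266 and 679 CPM in KO livers on FFC, against 2176, 927 and 936 CPM in KO livers on chow. In WT livers Gstp1 had 321, 345 and 279.8 CPM on FFC, against 822, 985 and 1086 CPM on chow. FFC and chow libraries were apart in both genotypes, and the log2 change was -1.56 ± 0.34 (SE, adjusted p = 0.00376) in KO livers and -1.61 ± 0.34 (SE, adjusted p = 0.00451) in WT livers. Gstp2 had 19.1, 17.5 and 36.1 CPM in KO livers on FFC, against 177, 96.3 and 78.5 CPM in KO livers on chow. WT levels of Gstp2 were 22.2, 34.5 and 28.9 CPM on FFC, against 101, 112 and 119 CPM on chow. These groups were apart too, and the log2 change of Gstp2 was -2.27 ± 0.31 (SE, adjusted p = 0.000160) in KO livers and -1.95 ± 0.30 (SE, adjusted p = 0.000551) in WT livers. The 4 calls were kept in every alternative that was run. The coding sequences of the pair are 98.1% identical, so reads may be divided between them.

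KO chow replicate 1 stood above the other KO chow libraries for both genes. It also had the lowest Alb share of counts among the chow libraries, 7.31%, where the other 5 had 10.1% to 14.3%. Without this library the log2 change of Gstp1 in KO livers was nearest to 0 among the fits that left out 1 library, at -1.03, and still passed the test. With the table's length of 757 bases, Gstp1 averaged 603 ± 275 RPKM in KO livers on FFC and 1779 ± 949 RPKM in KO livers on chow, and 416 ± 43.5 RPKM in WT livers on FFC and 1274 ± 176 RPKM in WT livers on chow (SD, n = 3 each). Its exons span 1548 bases in GENCODE M21, a length that would lower these RPKM values, so its place among the GSTs per length is not given.

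The 2 Gstp promoters are shown because the genes moved together and their upstream regions are less alike than their coding parts. Over the 250 bases before the start, 207 of 265 aligned positions were identical (78.1%). Both hold an AP-1 type sequence, TGAGTCA followed by GCA (capitals), which was looked for after the sequences had been seen and begins 74 bases before the start of Gstp1 and 89 before that of Gstp2. It occurred in 0.14% of all promoter windows. The sequences are from RefSeq on GRCm38.p6, 5′ to 3′ on the gene's strand, at chr19:4037913-4038162, minus strand for Gstp1 and chr19:4042222-4042471, minus strand for Gstp2.
Gstp1: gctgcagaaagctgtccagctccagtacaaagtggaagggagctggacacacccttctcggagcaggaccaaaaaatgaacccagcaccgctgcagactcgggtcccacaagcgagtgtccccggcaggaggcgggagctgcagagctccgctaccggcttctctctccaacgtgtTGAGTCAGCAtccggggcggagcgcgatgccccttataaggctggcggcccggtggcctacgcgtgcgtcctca
Gstp2: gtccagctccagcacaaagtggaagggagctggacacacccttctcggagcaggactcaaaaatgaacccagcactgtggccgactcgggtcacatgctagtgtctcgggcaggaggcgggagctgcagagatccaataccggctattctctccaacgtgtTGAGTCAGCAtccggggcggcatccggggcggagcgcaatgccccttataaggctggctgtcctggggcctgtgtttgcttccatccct
The antioxidant response element core TGACNNNGC, an NRF2 motif, was in 3 of the 63 member windows (4.76%), those of Gsta3, Gstm5 and Gstm7, and in 12.39% of all windows. All 3 are among the 20 windows of members that fell in both genotypes (15.0%). The AhR core NGCGTG was in 20.63% of member windows, 15.0% of those 20 and 32.33% of all windows. The STAT5 core TTCNNNGAA was in 6.35% of member windows, 5.0% of those 20 and 8.3% of all windows. A direct repeat of AGGTCA with 4 bases between the copies was in none of the member windows and in 0.02% of all windows.

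Alpha class GSTs conjugate products of lipid peroxidation. Gsta3, which detoxifies aflatoxin epoxide in mice, had 1517, 2244 and 1853 CPM in KO livers on FFC, against 2324, 4189.9 and 4735 CPM in KO livers on chow. In WT livers Gsta3 was at 1671, 1802 and 1702 CPM on FFC, against 3353, 3402 and 2714 CPM on chow. No FFC library reached a chow library, and the log2 change was -1.003 ± 0.23 (SE, adjusted p = 0.00450) in KO livers and -0.87 ± 0.23 (SE, adjusted p = 0.0147) in WT livers. The WT call was lost without WT FFC replicate 2 (adjusted p = 0.0631), WT FFC replicate 4 (adjusted p = 0.0575) or WT chow replicate 3 (adjusted p = 0.0512). Gsta4, with high activity toward hydroxynonenal, had 84.1, 85.1 and 69.1 CPM in KO livers on FFC, against 103, 102 and 236 CPM in KO livers on chow. WT livers held 67.8, 62.3 and 69.4 CPM on FFC, against 163, 170.3 and 126 CPM on chow. The ranges were apart, with log2 changes of -0.89 ± 0.26 (SE, adjusted p = 0.0175) in KO livers and -1.20 ± 0.26 (SE, adjusted p = 0.00463) in WT livers, and the KO call was lost without KO FFC replicate 7 (adjusted p = 0.0679) or KO chow replicate 3 (-0.40, adjusted p = 0.0936).

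Gsta1 and Gsta2 have coding sequences that are 97.6% identical, and reads may be divided between them. Gsta2 had 26.6, 27.6 and 29.7 CPM in KO livers on FFC, against 41.1, 27.6 and 103 CPM in KO livers on chow, with overlap, and 27.9, 22.3 and 24.4 CPM in WT livers on FFC, against 112, 51.5 and 84.7 CPM in WT livers on chow, without. Its log2 change was -1.03 ± 0.39 (SE, adjusted p = 0.0661) in KO livers and -1.73 ± 0.39 (SE, adjusted p = 0.00972) in WT livers. Gsta1 had 11.98, 12.5 and 4.74 CPM in KO livers on FFC, against 0.735, 4.54 and 5.86 CPM in KO livers on chow, and 15.002, 7.54 and 4.31 CPM in WT livers on FFC, against 7.92, 4.69 and 5.21 CPM in WT livers on chow. Gsta1 groups overlapped in both genotypes, and the log2 changes of 1.41 ± 0.62 (SE, adjusted p = 0.112) in KO livers and 0.59 ± 0.60 (SE, adjusted p = 0.554) in WT livers were the only positive ones in the class.

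The mu class, 7 neighbouring genes on chromosome 3 that conjugate drugs and other foreign compounds, did not move as 1 block. Gstm1, the highest of them per length, had 1775, 1791 and 1475 CPM in KO livers on FFC, against 2439.7, 1087 and 1678 CPM in KO livers on chow. WT values for Gstm1 were 1932, 1789.5 and 1942 CPM on FFC, against 1653, 1278 and 1889 CPM on chow. Ranges overlapped in both genotypes, with log2 changes of -0.05 ± 0.23 (SE, adjusted p = 0.907) in KO livers and 0.23 ± 0.23 (SE, adjusted p = 0.545) in WT livers. Gstm2 had 88.2, 88.5 and 62.3 CPM in KO livers on FFC, against 70.3, 68.7 and 72.9 CPM in KO livers on chow, and 132, 92.5 and 110.1 CPM in WT livers on FFC, against 90.6, 64.7 and 99.7 CPM in WT livers on chow, also with overlap. Its log2 changes were 0.17 ± 0.20 (SE, adjusted p = 0.541) in KO livers and 0.39 ± 0.20 (SE, adjusted p = 0.188) in WT livers.

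Gstm3 was the member that rose in both genotypes. It had 193, 153 and 72.03 CPM in KO livers on FFC, against 88.2, 57.6 and 97.02 CPM in KO livers on chow, where KO FFC replicate 7 lay within the chow range. In WT livers Gstm3 had 199, 161 and 186 CPM on FFC, against 115, 95.6 and 97.002 CPM on chow, without overlap. The log2 change was 0.78 ± 0.27 (SE, adjusted p = 0.0416) in KO livers and 0.83 ± 0.27 (SE, adjusted p = 0.0449) in WT livers. These calls lay near the threshold. The KO call was lost without KO FFC replicate 1 (0.48, adjusted p = 0.244), KO FFC replicate 4 (adjusted p = 0.118), KO chow replicate 1 (adjusted p = 0.0795) or KO chow replicate 2 (adjusted p = 0.157), and the WT call without any 1 of the 6 libraries (adjusted p = 0.0643 to 0.142).

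Gstm4 to Gstm7 were lower on FFC in KO livers. Gstm7 had 34.4, 35.9 and 48.8 CPM in KO livers on FFC, against 68.8, 69.01 and 77.1 CPM in KO livers on chow. Its WT levels were 39.98, 41.8 and 41.4 CPM on FFC, against 63.2, 71.3 and 83.8 CPM on chow. All FFC libraries lay below all chow libraries, and the log2 change was -0.85 ± 0.17 (SE, adjusted p = 0.00199) in KO livers and -0.82 ± 0.17 (SE, adjusted p = 0.00368) in WT livers, with no call lost when 1 library was left out. Gstm6 had 60.7, 93.2 and 77.3 CPM in KO livers on FFC, against 109.7, 110.04 and 129 CPM in KO livers on chow. WT levels of Gstm6 were 69.9, 67.8 and 68.1 CPM on FFC, against 106, 131 and 146 CPM on chow. Groups were apart, and the log2 change of Gstm6 was -0.60 ± 0.18 (SE, adjusted p = 0.0215) in KO livers, lost without KO FFC replicate 1 (adjusted p = 0.128) or KO FFC replicate 7 (adjusted p = 0.0589), and -0.90 ± 0.18 (SE, adjusted p = 0.00305) in WT livers.

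Gstm5, known from brain and testis, had 10.4, 14.1 and 11.2 CPM in KO livers on FFC, against 15.3, 31.6 and 19.4 CPM in KO livers on chow. In WT livers it had 7.89, 7.35 and 8.10 CPM on FFC, against 14.4, 16.98 and 9.93 CPM on chow. Ranges did not overlap, and the log2 change was -0.89 ± 0.26 (SE, adjusted p = 0.0174) in KO livers and -0.82 ± 0.26 (SE, adjusted p = 0.0388) in WT livers. The KO call was lost without KO FFC replicate 1 (adjusted p = 0.0794), KO FFC replicate 7 (adjusted p = 0.0582) or KO chow replicate 2 (-0.56, adjusted p = 0.0976), and the WT call without 5 of the 6 libraries (adjusted p = 0.0825 to 0.164). Gstm5 shares 178 exon bases with an antisense gene, 4933431E20Rik, which had a mean count of 129.6 beside 329 for Gstm5. Gstm4 had 58.1, 54.9 and 68.1 CPM in KO livers on FFC, against 101, 76.9 and 124 CPM in KO livers on chow, apart, and 71.3, 68.7 and 63.9 CPM in WT livers on FFC, against 93.8, 63.4 and 77.9 CPM in WT livers on chow, with overlap. Its log2 change was -0.74 ± 0.19 (SE, adjusted p = 0.00988) in KO livers and -0.21 ± 0.19 (SE, adjusted p = 0.507) in WT livers, and the difference between genotypes was -0.53 ± 0.27 (SE, adjusted p = 0.343).

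Theta class enzymes act on small halogenated compounds. Gstt2 had 72.9, 55.6 and 68.5 CPM in KO livers on FFC, against 118, 145 and 161 CPM in KO livers on chow. WT values of Gstt2 were 53.6, 57.96 and 53.7 CPM on FFC, against 117, 131 and 101 CPM on chow. The groups were apart by a wide gap, and the log2 change was -1.11 ± 0.17 (SE, adjusted p = 0.000357) in KO livers and -1.08 ± 0.17 (SE, adjusted p = 0.000570) in WT livers, kept in every alternative that was run. Gstt1, the highest of the class per length, had 270.2, 266 and 297 CPM in KO livers on FFC, against 389, 297 and 479 CPM in KO livers on chow, and 212, 233 and 255 CPM in WT livers on FFC, against 326, 295 and 294 CPM in WT livers on chow. Although every FFC library lay below every chow library of its genotype, in KO livers by less than 1 CPM, the log2 changes of -0.48 ± 0.18 (SE, adjusted p = 0.0525) in KO livers and -0.39 ± 0.18 (SE, adjusted p = 0.151) in WT livers did not pass. Gstt3 fell in KO livers with a log2 change of -0.94 ± 0.31 (SE, adjusted p = 0.0351) and overlapping libraries (50.4 to 58.5 CPM in KO livers on FFC, 55.1 to 160.1 CPM in KO livers on chow). That call was lost without 5 of the 6 libraries (adjusted p = 0.0722 to 0.161), and without KO chow replicate 3 the change was -0.51. In WT livers the libraries were apart and the log2 change was -0.86 ± 0.31 (SE, adjusted p = 0.0705). Gstt3 shares 524 exon bases on the same strand with Gm20441, which had a mean count of 3505 beside 1676 for Gstt3.

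Gsto1, an omega class enzyme that reduces dehydroascorbate, had 70.6, 69.8 and 72.5 CPM in KO livers on FFC, against 132, 80.4 and 107 CPM in KO livers on chow. WT livers had 59.4, 53.1 and 58.6 CPM on FFC, against 99.3, 91.2 and 94.3 CPM on chow. No diet groups overlapped, and the log2 change was -0.58 ± 0.17 (SE, adjusted p = 0.0193) in KO livers, lost without KO FFC replicate 1 (adjusted p = 0.0661), KO FFC replicate 4 (adjusted p = 0.0654), KO FFC replicate 7 (adjusted p = 0.0504) or KO chow replicate 1 (adjusted p = 0.0620), and -0.74 ± 0.17 (SE, adjusted p = 0.00800) in WT livers. Gstz1, the zeta class maleylacetoacetate isomerase of tyrosine breakdown, had 788, 939 and 945 CPM in KO livers on FFC, against 791, 1001 and 1191 CPM in KO livers on chow, with overlap, and 685, 774 and 724 CPM in WT livers on FFC, against 1056, 1146 and 1065 CPM in WT livers on chow, without. Its log2 change was -0.16 ± 0.17 (SE, adjusted p = 0.530) in KO livers and -0.58 ± 0.17 (SE, adjusted p = 0.0296) in WT livers, and the WT call was lost without 5 of the 6 libraries (adjusted p = 0.0657 to 0.127). Gstz1 shares 465 exon bases with Pomt2 on the opposite strand, whose mean count was 682 beside 23127 for Gstz1.

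Gstk1, the kappa class enzyme of mitochondria and peroxisomes, had 124, 145 and 177 CPM in KO livers on FFC, against 130.3, 146 and 214 CPM in KO livers on chow, and 122, 132 and 128 CPM in WT livers on FFC, against 174, 160.2 and 168 CPM in WT livers on chow. Ranges overlapped in KO livers alone, and the log2 changes of -0.14 ± 0.19 (SE, adjusted p = 0.626) in KO livers and -0.40 ± 0.19 (SE, adjusted p = 0.170) in WT livers did not pass. Gstcd, which carries a GST C-terminal domain and has no well-known enzyme role, was low, with 5.04, 4.26 and 4.08 CPM in KO livers on FFC, against 1.32, 2.34 and 2.04 CPM in KO livers on chow. In WT livers Gstcd had 4.66, 4.29 and 4.58 CPM on FFC, against 3.26, 3.43 and 3.71 CPM on chow. FFC libraries were above chow libraries in both genotypes, and the log2 change was 1.23 ± 0.30 (SE, adjusted p = 0.00668) in KO livers and 0.38 ± 0.29 (SE, adjusted p = 0.402) in WT livers. Gstcd shares 100 exon bases with Ints12 on the opposite strand, whose mean count was 202 beside 99.8 for Gstcd. Together Gsta3, Gstm1, Gstp1 and Gstz1, 4 genes, held 79.1% to 84% of the summed GST CPM in each library.

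**Figure D4:**
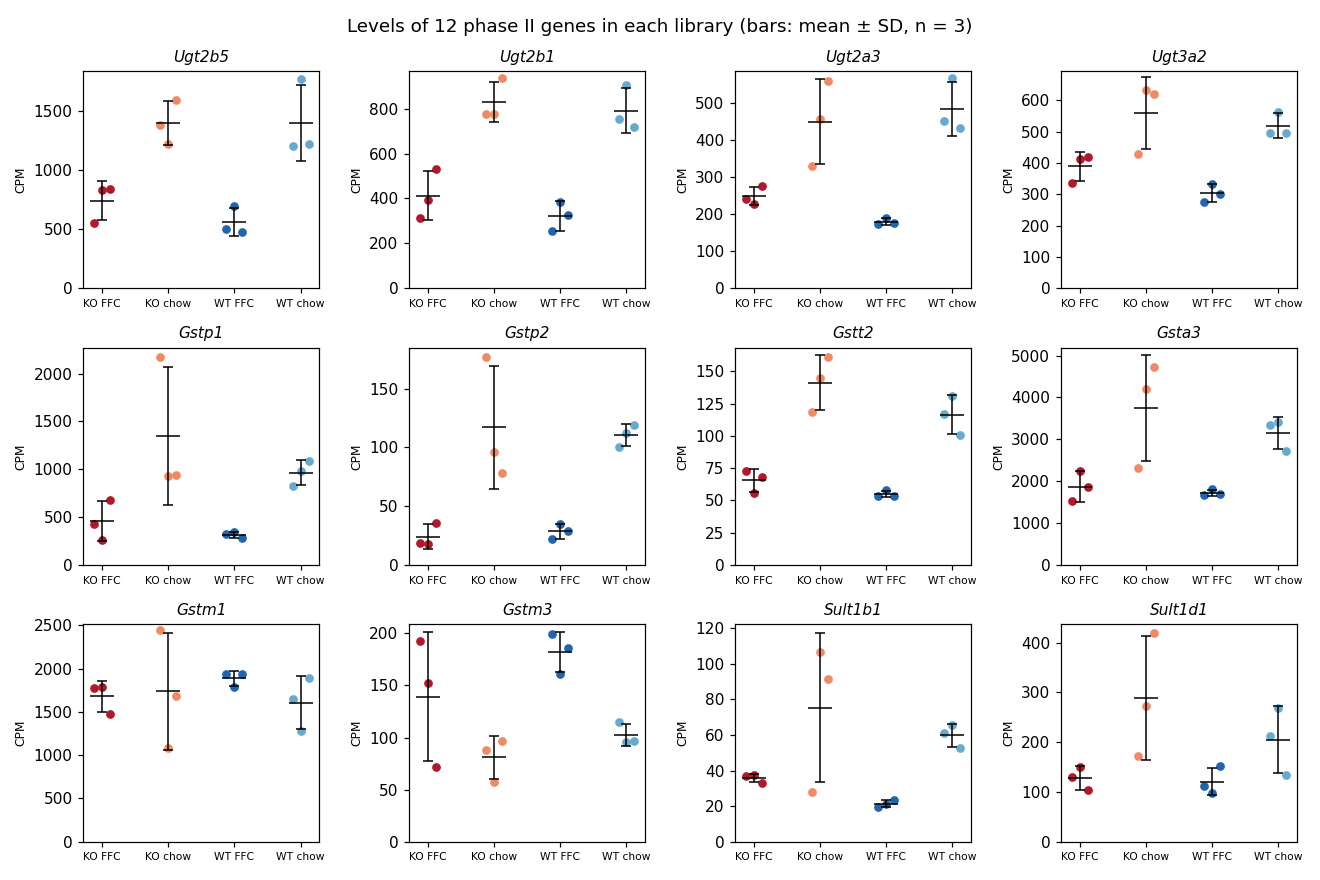
CPM (y axes, from 0) of 12 genes in each library of the 4 groups (x axis), with the mean and SD of 3 libraries. Gstp2, Gstt2, Ugt2b1 and Ugt2b5 lie lower on FFC in both genotypes, Gstm1 overlaps between diets, and Gstm3 is higher on FFC in all libraries but KO FFC replicate 7, at 72.03 CPM.

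Of the SULTs that the symbol rule takes in, Sult1a1 and Sult1d1 made up most of the counts, at 46.6% to 64.2% and 23.1% to 41.2% of the summed SULT CPM per library. Sult1a1, the phenol sulfotransferase, had 188, 255 and 219.7 CPM in KO livers on FFC, against 222, 400.2 and 475 CPM in KO livers on chow, with overlap through KO chow replicate 1. In WT livers it had 253, 215 and 325 CPM on FFC, against 435, 448 and 373 CPM on chow, without overlap. The log2 change was -0.73 ± 0.24 (SE, adjusted p = 0.0308) in KO livers, lost without KO FFC replicate 1 (adjusted p = 0.128), KO FFC replicate 7 (adjusted p = 0.0752), KO chow replicate 2 (adjusted p = 0.0681) or KO chow replicate 3 (adjusted p = 0.103), and -0.66 ± 0.24 (SE, adjusted p = 0.0630) in WT livers. Sult1a1 shares 61 exon bases with Sgf29 on the opposite strand. Sult1d1, which sulfates catecholamines in mice, had 131, 151 and 103 CPM in KO livers on FFC, against 173, 273 and 420.3 CPM in KO livers on chow, apart, and 113, 98.3 and 152 CPM in WT livers on FFC, against 213, 269 and 134 CPM in WT livers on chow, with overlap. Its log2 change was -1.17 ± 0.30 (SE, adjusted p = 0.00875) in KO livers and -0.76 ± 0.29 (SE, adjusted p = 0.0878) in WT livers.

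Sult1b1, a thyroid hormone sulfotransferase, had 36.99, 37.4 and 33.1 CPM in KO livers on FFC, against 27.8, 106 and 91.6 CPM in KO livers on chow. Here KO chow replicate 1 lay below every KO FFC library, while the other KO chow libraries lay far above them. WT values of Sult1b1 were 19.4, 21.3 and 23.5 CPM on FFC, against 61.1, 65.3 and 52.8 CPM on chow, without overlap. The log2 change was -1.07 ± 0.32 (SE, adjusted p = 0.0239) in KO livers and -1.48 ± 0.33 (SE, adjusted p = 0.00669) in WT livers. Without KO chow replicate 1 the KO change was -1.46 (adjusted p = 3.39e-05), and the call was lost without any 1 of the other 5 KO libraries (adjusted p = 0.0627 to 0.0908).

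Sult5a1 was low, with 3.38, 1.82 and 7.28 CPM in KO livers on FFC, against 14.1, 9.12 and 13.96 CPM in KO livers on chow. WT livers held 2.36, 2.48 and 2.82 CPM on FFC, against 17.7, 4.59 and 8.17 CPM on chow. Groups were apart in both genotypes, with log2 changes of -1.57 ± 0.46 (SE, adjusted p = 0.0207) in KO livers, lost without KO FFC replicate 1 (adjusted p = 0.0811), KO FFC replicate 4 (adjusted p = 0.0770) or KO chow replicate 1 (adjusted p = 0.0780), and -1.99 ± 0.47 (SE, adjusted p = 0.00952) in WT livers, lost without WT FFC replicate 2 (adjusted p = 0.0505) or WT chow replicate 2 (adjusted p = 0.0571). Sult1c2 and Sult2a7 did not pass in either genotype. Sult2a7, of the class that sulfates steroids and bile acids, had 5.61, 3.85 and 1.52 CPM in KO livers on FFC, against 2.84, 7.65 and 7.04 CPM in KO livers on chow, and 1.12, 1.84 and 1.47 CPM in WT livers on FFC, against 3.31, 4.54 and 3.01 CPM in WT livers on chow, with overlap in KO livers alone. Its log2 changes were -0.67 ± 0.43 (SE, adjusted p = 0.264) in KO livers and -1.29 ± 0.45 (SE, adjusted p = 0.0596) in WT livers. Sult1c2 lay at 5.78 to 11.98 CPM over the KO libraries and 7.40 to 10.03 CPM over the WT libraries.

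Sult1e1, the estrogen sulfotransferase, was near the limit of detection, with 2.59, 0.811 and 0.955 CPM in KO livers on FFC, against 0, 0 and 0 CPM in KO livers on chow. In WT livers it had 0.730, 0.237 and 2.11 CPM on FFC, against 1.39, 0.211 and 0.0501 CPM on chow, with overlap. All 3 KO chow libraries had 0 counts, against 131 counts over the KO FFC libraries, which makes KO livers on FFC at least 26.8-fold higher with the 0 set to 3 counts for the whole group (edgeR adjusted p = 0.00530). KO FFC replicate 1 held 78 of those counts, and without it the bound was 16.3-fold (adjusted p = 0.0210). The 3 WT chow libraries alone ranged from 0.0501 to 1.39 CPM.

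The other 13 members were not tested. Sult1c1, Sult2a5 and Sult2a6 had no count in any library. Gsto2, Gstt4, Sult2a1, Sult2a2, Sult2a3, Sult2a4, Sult2b1, Sult3a1, Sult4a1 and Sult6b1 had 1 to 30 counts over all 12 libraries, with at most 10 in a single library. Sult2a1 to Sult2a6, of a hydroxysteroid sulfotransferase class known as female-predominant in mouse liver, had at most 15 counts each, and coding sequences among Sult2a1 to Sult2a5 are up to 94.9% identical.

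No member passed the test between KO and WT livers on the same diet. On FFC 0 of 47 passed in edgeR, beside 0.0184% of all tested genes, and 0 passed in DESeq2 and in limma-voom. At an unadjusted p under 0.05 there were 6, beside 591 of all 16283 tested genes. Of the 6, Gstm5, Sult1b1, Sult2a7, Ugt2a3 and Ugt2b35 were higher in KO livers and Gstm2 was lower. The log2 difference was positive for 37 of the 47, with a median of 0.24, beside -0.01 over all tested genes, and 13 rather than 10 were negative with total-count scaling. Libraries did not overlap for 10 members higher in KO livers (10.9% of all tested genes) and 1 lower (10.5%). Those higher were Gstm5, Gsto1, Gstt1, Gstt3, Gstz1, Sult1b1, Ugt2a3, Ugt2b35, Ugt3a1 and Ugt3a2.

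Ugt2b35, with the lowest p of these, had 95.5, 93.2 and 98.04 CPM in KO livers on FFC, against 59.1, 77.96 and 45.7 CPM in WT livers on FFC, and the log2 difference was 0.65 ± 0.21 (SE, adjusted p = 1.000). Sult1b1 on FFC had 36.99, 37.4 and 33.1 CPM in KO livers on FFC, against 19.4, 21.3 and 23.5 CPM in WT livers on FFC, a difference of 0.74 ± 0.32 (SE, adjusted p = 1.000). With the FFC libraries fitted alone, Sult1b1 passed (0.74, adjusted p = 0.0389), and it was the only member to pass on FFC under any alternative that was run. Ugt2a3 had 242, 228 and 276 CPM in KO livers on FFC, against 173, 189 and 177 CPM in WT livers on FFC, with 0.47 ± 0.19 (SE, adjusted p = 1.000). For these 3 genes no WT library reached a KO library, while the adjusted p, taken over all tested genes, did not pass.

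On chow 0 of 47 passed in edgeR, where 7.28% of all tested genes did. An unadjusted p under 0.05 was found for 5 of the 47, a smaller share than the 4340 of all 16283 tested genes. Libraries did not overlap for 0 members higher in KO livers (9.62% of all tested genes) and 3 lower (11.0%), Gstcd, Sult1e1 and Ugt2b37. DESeq2 called 2, beside 13.8% of all tested genes, namely Gstcd (-0.84, adjusted p = 0.0417) and Sult1e1 (adjusted p = 0.00501), both lower in KO livers, and limma-voom called 0. Gstcd had 1.32, 2.34 and 2.04 CPM in KO livers on chow, against 3.26, 3.43 and 3.71 CPM in WT livers on chow, with -0.87 ± 0.30 (SE, adjusted p = 0.0836) in edgeR. Sult1e1 had 0 counts in KO livers on chow and 34 counts over the WT livers on chow, which makes KO livers at least 10.5-fold lower on the same footing (edgeR adjusted p = 0.0519). WT chow replicate 2 held 29 of the 34 counts. Without it 5 were left and the bound was 2.37-fold (adjusted p = 0.230), and WT chow replicate 4, with 1 count, lay under the floor itself. Calls on chow depended on the libraries. Without KO chow replicate 1, Gstm5 (0.89, adjusted p = 0.0473) and Sult1b1 (0.73, adjusted p = 0.0222) were higher in KO livers. Without KO chow replicate 3, Gsta2 (-1.23, adjusted p = 0.00918) and Gsta4 (-0.55, adjusted p = 0.0484) were lower, and without WT chow replicate 4 Sult1e1 was lower (adjusted p = 0.0493).

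**Figure D5:**
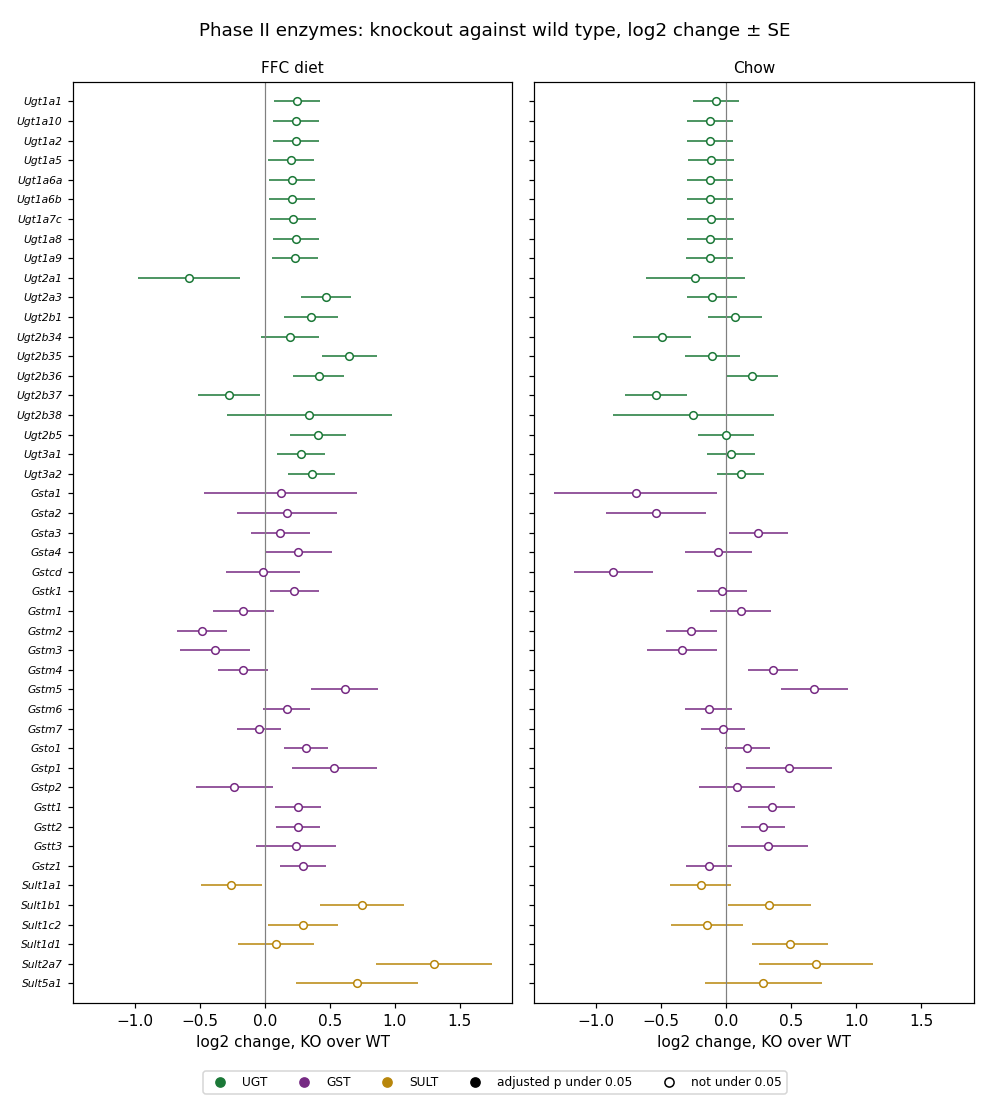
Log2 difference of KO over WT livers (x axis) for 46 tested members (y axis, by family) on FFC (left) and chow (right), with bars of 1 SE. All points are open, as no adjusted p was under 0.05, and on FFC most lie right of 0, up to 1.30 for Sult2a7, while Sult1e1 is not drawn.

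When the difference between the FFC effects of the genotypes was tested itself, 0 of 47 members passed in edgeR, where 0.0491% of all tested genes passed. The unadjusted p was under 0.05 for 2624 of all 16283 tested genes and for a smaller share of the members, 4 of 47. Those were Ugt2b35, Ugt2b34 (0.69 ± 0.32 (SE, adjusted p = 0.300)), Ugt2a3 (0.58 ± 0.27 (SE, adjusted p = 0.303)) and Sult1e1, each positive, which here means a smaller fall or a larger rise on FFC in KO livers. DESeq2 called 1, Sult1e1 (adjusted p = 0.0338), beside 2.62% of all tested genes, and limma-voom 0. Without KO chow replicate 3 Gsta2 passed (1.403, adjusted p = 0.0415). So the 12 members called lower in WT livers and not in KO livers, and the 6 called in KO livers and not in WT livers, are not shown to differ between genotypes.

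Other enzymes and carriers of the same pathways were read from lists of genes. Of all tested genes, 13.7% were called higher and 12.8% lower on FFC in KO livers, and 8.76% and 8.03% in WT livers. Of 18 tested other phase II enzymes, 5 fell and 1 rose on FFC in KO livers and 6 fell in WT livers. Gnmt, which methylates glycine, had 526, 515 and 742 CPM in KO livers on FFC, against 2625, 2299 and 2749 CPM in KO livers on chow. In WT livers Gnmt had 371, 455 and 608 CPM on FFC, against 1563, 1438 and 2105 CPM on chow. It fell without overlap, with a log2 change of -2.11 ± 0.22 (SE, adjusted p = 2.57e-05) in KO livers and -1.83 ± 0.22 (SE, adjusted p = 4.69e-05) in WT livers. Nat8, which acetylates cysteine conjugates on the way to mercapturates, had log2 changes of -1.18 ± 0.21 (SE, adjusted p = 0.000761) in KO livers and -1.53 ± 0.21 (SE, adjusted p = 0.000162) in WT livers. Nnmt, the nicotinamide methyltransferase, fell as well, with -1.88 ± 0.36 (SE, adjusted p = 0.00198) in KO livers and -1.47 ± 0.35 (SE, adjusted p = 0.0117) in WT livers.

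Counts of called genes in the lists of co-substrate supply stand beside 26.5% of all tested genes called in KO livers and 16.8% in WT livers. Of 8 for UDP-glucuronic acid, 1 rose and 1 fell in KO livers, and 2 rose and 1 fell in WT livers, where Ugdh, the enzyme that makes it, had a log2 change of -0.83 ± 0.19 (SE, adjusted p = 0.00704). Of 16 for glutathione, 1 rose and 4 fell in KO livers, and 1 rose and 5 fell in WT livers. Cth, which makes cysteine, had log2 changes of -1.45 ± 0.31 (SE, adjusted p = 0.00370) in KO livers and -2.31 ± 0.32 (SE, adjusted p = 0.000244) in WT livers. Gclc, the limiting enzyme of glutathione synthesis, rose in KO livers by 0.83 ± 0.20 (SE, adjusted p = 0.00648). Of 9 genes for PAPS, 1 rose and 2 fell in KO livers and 1 fell in WT livers, and the Golgi PAPS carrier Slc35b2 fell in both, with log2 changes of -0.82 ± 0.19 (SE, adjusted p = 0.00487) in KO livers and -0.94 ± 0.19 (SE, adjusted p = 0.00309) in WT livers. Of 14 carriers of conjugates, 2 rose and 3 fell in each genotype, with Abcc5 higher by 2.29 ± 0.29 (SE, adjusted p = 7.71e-05) in KO livers and 1.74 ± 0.27 (SE, adjusted p = 0.000446) in WT livers.

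Known regulators and their targets did not go 1 way. Their counts stand beside 13.7% of all tested genes called higher and 12.8% called lower in KO livers. In WT livers these shares were 8.76% and 8.03%. Of 19 receptors and factors, 3 rose and 4 fell in KO livers and 2 rose in WT livers. Nfe2l2, which encodes NRF2, had 85.9, 103 and 90.04 CPM in KO livers on FFC, against 40.4, 52.4 and 54.5 CPM in KO livers on chow, and 92.1, 114 and 89.4 CPM in WT livers on FFC, against 56.4, 66.1 and 62.8 CPM in WT livers on chow, and rose by 0.92 ± 0.17 (SE, adjusted p = 0.00111) in KO livers and 0.68 ± 0.17 (SE, adjusted p = 0.0116) in WT livers. Of 15 NRF2 targets other than GSTs, 7 rose and 2 fell in KO livers and 4 rose and 2 fell in WT livers. Srxn1, a sulfiredoxin, rose by 1.31 ± 0.18 (SE, adjusted p = 0.000160) in KO livers and 0.61 ± 0.18 (SE, adjusted p = 0.0280) in WT livers, and Me1, malic enzyme, by 1.38 ± 0.21 (SE, adjusted p = 0.000269) in KO livers and 1.06 ± 0.20 (SE, adjusted p = 0.00233) in WT livers. Of 14 cytochrome P450 genes known as CAR, PXR or AhR targets, 8 fell and 1 rose in KO livers and 6 fell and 1 rose in WT livers. Cyp1a2 had log2 changes of -1.9997 ± 0.30 (SE, adjusted p = 0.000329) in KO livers and -2.47 ± 0.31 (SE, adjusted p = 8.74e-05) in WT livers. Cyp2c29 had -2.02 ± 0.33 (SE, adjusted p = 0.000629) in KO livers and -2.34 ± 0.34 (SE, adjusted p = 0.000320) in WT livers. Cyp2b13 was the one that rose, with 7.96, 6.38 and 2.01 CPM in KO livers on FFC, against 0.147, 0 and 0.132 CPM in KO livers on chow, and 6.97, 7.85 and 7.81 CPM in WT livers on FFC, against 0.528, 0.0527 and 0 CPM in WT livers on chow.

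Several marker lists moved with the diet as well. Of all tested genes, 12.8% were called lower and 13.7% higher in KO livers, and 8.03% and 8.76% in WT livers. All 8 hepatocyte markers fell in KO livers and 7 of 8 in WT livers, with median log2 changes of -1.07 in KO livers and -1.15 in WT livers, beside the members' -0.58 and -0.76. Of 9 male-biased liver genes 6 fell in KO livers and 7 in WT livers, among them Cyp7b1, an oxysterol hydroxylase, with log2 changes of -1.55 ± 0.30 (SE, adjusted p = 0.00159) in KO livers and -2.95 ± 0.31 (SE, adjusted p = 1.90e-05) in WT livers. Of 9 female-biased genes, 1 rose and 2 fell in KO livers, and 2 rose and 1 fell in WT livers. Of 6 pericentral genes 1 fell in KO livers and 4 in WT livers, and of 6 periportal genes 1 fell in KO livers and 3 in WT livers. The 1 of 6 in KO livers is near the share of all tested genes called lower. Some lists share genes, so their counts are not separate. Cyp1a2, the pericentral gene called in KO livers, is also among the cytochrome P450 genes above, as are the female-biased Cyp2b13 and Cyp3a41a. Slco1a1 is counted both as a carrier and as male-biased. The part of these marker lists in the fall of the phase II genes was not tested.

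Many markers of other cells were higher on FFC, beside 13.7% of all tested genes called higher in KO livers and 8.76% in WT livers. Of 7 macrophage markers 7 rose in KO livers, and 6 rose and 1, Marco, fell in WT livers, with summed levels of 459 to 627 CPM in KO livers on FFC and 218 to 314 CPM in KO livers on chow. In WT livers these sums were 446 to 535 CPM on FFC and 196 to 243 CPM on chow. Of 6 stellate cell and fibroblast markers 2 rose in KO livers and 6 in WT livers, and of 5 endothelial markers 4 rose in KO livers and 5 in WT livers. None of 4 tested cholangiocyte markers was called, and their list summed to 2.47 to 8.21 CPM over all libraries. Of 5 kidney and gut markers only Fabp2, which hepatocytes may also express, was tested. Fabp2 rose in WT livers, and 1 marker of that list was at 0 in every library.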

How the data were processed

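Counts per gene were deposited by the authors as 1 table of 12 liver libraries. Per the series' design text and the submitters' processing notes, paired-end reads were aligned with TopHat 2.1.0 to mm10 and counted with featureCounts 1.4.6 on Ensembl genes, and the authors used edgeR 3.18.1. The counting options and strandedness are not given in the sources used here. Gene lengths are those of the deposited table.

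From the counts, genes were kept by filterByExpr, scaled by trimmed means and fitted with edgeR 4.0.16 (robust quasi-likelihood, 4 groups, 12 libraries). Adjusted p is Benjamini-Hochberg over 16283 genes, with 0.05 as threshold. RPKM is CPM per kilobase. The fit was tested on simulated data. Libraries held 18873092 to 31154930 counts, and a floor of 3 counts covers counting error only. The fitted value of Sult1e1 in KO livers, a group at 0, lies on the same side of each median as its bound, so medians are not moved by it.

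The naming rule was up to 24 members with the lowest p among called ones whose mean log2 CPM reached 2, the highest member of each subfamily, and up to 3 genes per list and comparison. Other members given per library were chosen after their values were seen. Members and lists were chosen with earlier results of these data known. Alternatives were DESeq2 1.42.0, limma-voom 3.58.1, DESeq2's size factors in edgeR, the authors' filter and no filter, the compared groups alone, GC and length offsets (99.1% of tested genes had both), the replicate number as a block, each library left out, and, chosen after seeing the data, total-count scaling and Ugt1a shared reads counted once. Exon overlaps, GC content and coding identity come from GENCODE M21, promoters from RefSeq GRCm38.p6. Proteins were not analysed here.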

Additional observations from a re-analysis of the deposited data

How the results depend on the processing

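The 26 KO and 32 WT diet calls of members were recomputed under the alternatives, and 18 of the 58 were kept in all of them and 30 in every fit that left out 1 library. They were kept in 58 cases with the authors' filter and with DESeq2, 57 with DESeq2's size factors, 54 with limma-voom, 50 with GC and length offsets, 49 with the replicate block, 48 with the compared groups alone, 47 with no filter and 23 with total-count scaling. With Ugt1a shared reads counted once, in a row outside the members, 49 of 56 were kept, as Ugt1a2 and Ugt1a8 were not tested there. Each Ugt1a gene then stands for its reads beyond the shared ones. Members called for FFC against chow then numbered 16 in KO livers with the compared groups alone, and 12 in KO livers and 16 in WT livers with total-count scaling. Over all genes these were 2355 with the groups alone and 6609 with total-count scaling in KO livers, and 4389 with total-count scaling in WT livers, beside 4312 and 2734 in the fit reported. In that setting the Ugt1a5 reads beyond the shared ones turned to 0.21 in WT livers with Ugt1a shared reads counted once (adjusted p = 0.652).

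For KO against WT on FFC, 1 member passed with the compared groups alone, and all genes called were 114 with no filter, 18 with DESeq2, 17 with the groups alone and 14 with the replicate block, beside 3. On chow members called were 1 with no filter, 2 with DESeq2 and 3 with total-count scaling, and all genes were 1917 with no filter, 2247 with DESeq2, 0 with the groups alone, 183 with the replicate block and 475 with GC and length offsets, beside 1185. For the difference of diet effects, members called were 1 with no filter, 1 with DESeq2 and 2 with the replicate block, Ugt2b34 and Ugt2b35, and all genes were 600 with no filter, 419 with DESeq2, 396 with the replicate block and 0 with limma-voom, GC and length offsets and total-count scaling, beside 8. The cause of these shifts was not tested.

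Leaving out 1 library gave 15 to 23 members called in KO livers and 16 to 26 in WT livers for diet, 0 on FFC, 0 to 2 on chow and 0 to 1 for the difference. Over all genes it gave 2751 to 4978, 1305 to 2465, 1 to 5, 34 to 2534 and 0 to 580 in the same order. With the replicate block 19 members were called in KO livers and 35 in WT livers. Deviations of same-numbered libraries from their group means correlated at -0.124 to 0.09. That gave no sign of pairing, but with means of 3 libraries it cannot exclude pairing. With 3 libraries a group the count of calls is limited by their spread.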

Other observations

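Genes of these families that the symbol rule leaves out were read as well. Sult2a8, a hepatic bile acid sulfotransferase listed in the table as 2810007J24Rik, had 433, 589 and 785 CPM in KO livers on FFC, against 1478, 3056 and 2438 CPM in KO livers on chow. In WT livers it had 208, 519.6 and 289 CPM on FFC, against 1443, 2020.1 and 1378 CPM on chow. Groups did not overlap, and the log2 change was -1.95 ± 0.33 (SE, adjusted p = 0.000783) in KO livers and -2.25 ± 0.34 (SE, adjusted p = 0.000423) in WT livers. Gstp3, a pi class gene listed as BC021614, had 26.1, 23.1 and 20.7 CPM in KO livers on FFC, against 20.8, 39.04 and 24.9 CPM in KO livers on chow. In WT livers it had 23.8, 17.7 and 21.4 CPM on FFC, against 15.2, 27.7 and 20.9 CPM on chow. Gstp3 groups overlapped in both genotypes, and the log2 change was -0.28 ± 0.24 (SE, adjusted p = 0.423) in KO livers and -0.02 ± 0.24 (SE, adjusted p = 0.969) in WT livers. Sult6b2, listed as Gm766, and Sult3a2, listed as Gm4794, were not tested. These genes were looked at after the values were seen.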
